A study of Mus musculus with 8 samples.

Results

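The ubiquitin-conjugating (E2) enzyme genes were followed through an RNA immunoprecipitation of the germ-cell RNA-binding protein Dazl. The family was taken as every gene name on the array that begins with Ube2, which gave 31 of 27962 gene names and 81 of 41174 probes. It was picked because Ube2v2 stood high over the mock precipitate in these arrays. The comparisons with the mock are therefore given as values and as counts of genes past a limma threshold (adjusted p under 0.05). Those counts are a description and not a test of the family. Of the 81 probes 74 passed the filter on dim probes, which asked that the scanner software mark a probe as well above background on each array of some group, and all 31 genes kept at least 1. The 7 probes that did not pass belonged to Ube2b, Ube2e2, Ube2e3, Ube2n, Ube2t and Ube2w, and each of these genes was measured by another probe.

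The RNA came from testes of male mice at postnatal day 14, of a mixed C57BL/6 and 129SV strain, whose germ cells expressed a Dazl-GFP-V5 fusion. This fusion was shared by every group. The groups were a V5 precipitate made with anti-V5, a GFP precipitate made with anti-GFP, a mock precipitate made with normal mouse IgG, and input total RNA, with 2 one-colour arrays each. Lysates were not crosslinked. The labels do not say that the 2 samples of a group came from separate animals, so a p-value covers no more than the spread of these samples, and that spread may be technical. The series text names anti-PABP1 where the sample labels name anti-GFP, and 2 arrays (replicate 2 of input, replicate 1 of V5) carry descriptions that name the opposite kind of RNA to their titles. Titles were followed, and counts without both arrays are given where they move by over 1.5 times.

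Signals are given relative to the 75th percentile of each array, so that a value of 1 is the level of that percentile, and they describe the make-up of an RNA sample, not its amount. Between 57.21% and 62.25% of spots were well above background per array and no spot was saturated. Replicates correlated at 0.9944 to 0.9973 over the kept genes. Replicates of IgG lay a median of 0.159 log2 units apart, and those of the other groups 0.0768 to 0.0924. Markers of germ cells (7 of 8) and of Sertoli cells (8 of 8) were measured. So were those of Leydig, myoid and endothelial cells and leukocytes (5 of 5 each) and 3 of 4 erythroid markers. All were above background on both input arrays. The input RNA thus held transcripts of several cell types, and the number of cells of a type and the RNA per cell cannot be told apart. The summed relative signal of the germ cell markers was 258.8 to 271.4 in V5, 261.6 to 273.1 in GFP, 257.3 to 295.9 in IgG and 310.8 to 315.4 in input. That of the Sertoli cell markers was 171.9 to 181.2 in V5, 148.6 to 160.6 in GFP, 234.0 to 236.4 in IgG and 245.0 to 250.7 in input. Myoid markers summed to 22.5 to 24.95 in V5, 18.78 to 19.7 in GFP, 32.22 to 37.45 in IgG and 74.6 to 76.93 in input. Against IgG, 5 of the 7 germ cell markers were higher and 1 lower in V5 and likewise in GFP (median log2 differences of 0.81 and 1.17), although their sums overlapped those of IgG. Of the 8 Sertoli cell markers 7 were lower than IgG in V5 and 8 in GFP (medians of -0.39 and -0.58). All 5 Leydig and all 5 myoid markers were lower in both, with 0 higher in each of these lists. Of all genes 16.7% were higher than IgG in V5 and 40.3% lower, and in GFP 21.6% and 52.1%. The medians of all genes were -0.21 in V5 and -0.32 in GFP against IgG. Against input, by contrast, 1 of the 7 germ cell markers was higher and 5 lower in V5 (median -0.68). In GFP 1 was higher and 4 lower (median -0.58), and in IgG 1 was higher and 5 lower (median -1.08). Of all genes 37.7% were higher and 35.5% lower than input in V5, 36.2% and 39.1% in GFP, and 43.9% and 29.3% in IgG. The part of the marker shifts in the E2 results was not tested.

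Ubiquitin is passed from an activating enzyme (E1) to a conjugating enzyme (E2), which hands it to a substrate with a ligase (E3). The E2 and its partners decide which lysine of ubiquitin links a chain, and some E2 enzymes carry modifiers such as Nedd8 or Isg15 in place of ubiquitin. Ube2b, a mouse homologue of yeast RAD6, is needed for male fertility in mice. Dazl binds messenger RNAs, largely in their 3′ untranslated regions, and acts on their translation in germ cells.

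Both Dazl precipitates held more of most E2 transcripts than input did. In the V5 precipitate 21 of 31 genes were higher than input and 6 lower, against 37.7% higher and 35.5% lower of the 17593 genes tested (limma, Benjamini-Hochberg adjusted p under 0.05). In the GFP precipitate 24 were higher and 4 lower, against 36.2% and 39.1% of all genes. The median log2 difference of the family was 0.46 for V5 against input and 0.74 for GFP against input, where all genes had medians of 0.0059 and -0.059. The mock precipitate also differed from input: 15 genes were higher in IgG and 10 lower, against 43.9% and 29.3% of all genes, with a family median of 0.15 and a median of 0.22 over all genes. The share of the family that was higher in the mock was thus close to that of all genes.

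These comparisons share arrays, and the precipitate and mock arrays are also those on which the family was picked. The V5 and GFP arrays lay on another slide than the IgG and input arrays, so for V5 or GFP against IgG or input the slide and the group cannot be told apart. The scaling matters for direction. Scaled on spike-in probes, the median of all genes moved to -0.42 for V5 against input, -0.38 for GFP against input and -0.58 for IgG against input. The family then counted 9 higher and 9 lower in V5, 17 higher and 6 lower in GFP, and 2 higher and 24 lower in IgG. Its medians were 0.033 in V5, 0.42 in GFP and -0.64 in IgG, so that on this scaling the family lay above the median of all genes in V5 and GFP. With normexp background correction the family median was 0.29 in V5 against input, where all genes had 0.30, and 0.58 in GFP against input, where all genes had 0.26. Of the genes called higher in IgG, Ube2z and Ube2g2 remained so on spike-in scaling, Ube2s, Ube2m and Ube2o were positive but not past the threshold, and Ube2c, Ube2d2, Ube2e2, Ube2e3, Ube2h, Ube2j2, Ube2q, Ube2q2, Ube2r2 and Ube2v1 turned negative. Of those called higher in V5, Ube2d3, Ube2h, Ube2t and Ube2v1 were among the genes that turned negative (-0.15 to -0.017), and of those called higher in GFP, Ube2f did (-0.054). Directions given below are those on the 75th-percentile scaling. Scaled on the array median, V5 against input counted 24 higher and 3 lower, and after quantile normalization IgG against input counted 12 higher and 13 lower. Without the 2 arrays of conflicting descriptions, 17 of 31 genes differed between V5 and input, beside 50.8% of all genes. With normexp correction 10 differed in V5, 16 in GFP and 12 in IgG, beside 29.9%, 32.5% and 35.7% of all genes.

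**Figure D1:**
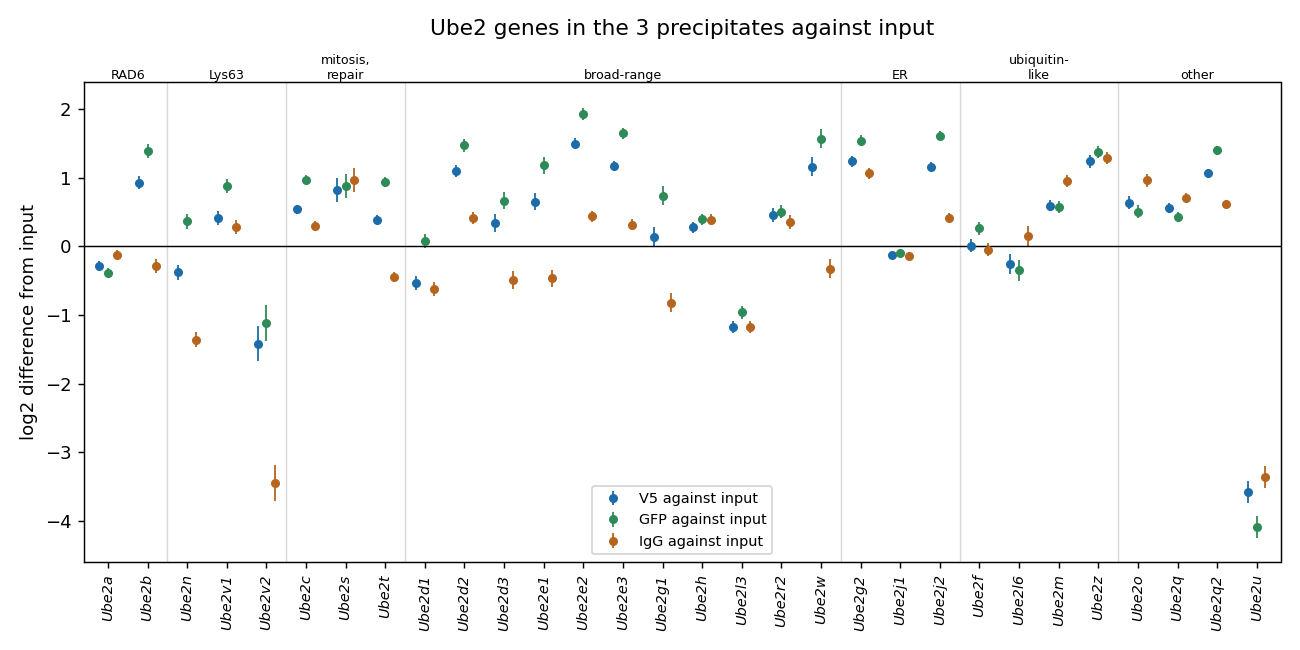
Log2 difference from input (vertical axis) of 30 of the 31 Ube2 genes (horizontal axis, grouped by role) in the V5, GFP and IgG precipitates; points are limma estimates from 2 arrays per group and bars are SE. Ube2v2 lies at -1.42 in V5, -1.11 in GFP and -3.45 in IgG, Ube2u lies below -3 in every precipitate, and Ube2e2 reaches 1.93 in GFP.

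Ube2v2, Ube2v1 and Ube2n make ubiquitin chains linked through lysine 63. Ube2n is the active enzyme, and Ube2v1 and Ube2v2 are E2-like partners without a catalytic cysteine. Ube2v2 had relative signals of 0.728 and 0.664 in V5, 0.958 and 0.770 in GFP, 0.226 and 0.127 in IgG, and 1.80 and 1.92 in input, on its brightest probe. Every precipitate thus lay below input, and the mock lay far below both Dazl precipitates. The log2 difference was -3.45 for IgG against input (SE 0.26), an 11-fold lower signal in the mock. The pick used the precipitate and mock values of this gene, so no test is given for its differences from input. V5 against input gave -1.42 and GFP against input -1.11 on this probe. The mean of its kept probes gave -0.45 for V5 against input. V5 against IgG was 2.04 and GFP against IgG 2.34, the values for which the family was picked. V5 against GFP was -0.30 (adjusted p = 0.41). The high standing of this probe over the mock therefore went with a level below input in the same precipitates.

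A second probe of Ube2v2 placed the precipitates differently relative to input. It read 0.349 and 0.307 in V5, 0.432 and 0.379 in GFP, 0.159 and 0.107 in IgG, and 0.308 and 0.296 in input. Its log2 difference was 0.12 for V5 against input, 0.42 for GFP against input and -1.21 for IgG against input. Both probes were thus lowest in the mock, but only the brightest one was also lower than input in the Dazl precipitates. The third kept probe was dim, at most 0.124 on any array, and its V5 replicates of 0.0384 and 0.124 spanned all its other values.

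Ube2n read 3.16 and 2.81 in V5, 4.96 and 5.02 in GFP, 1.66 and 1.37 in IgG, and 3.98 and 3.75 in input. The order was GFP, input, V5 and IgG, with no overlap between neighbours. On the log2 scale it gave -1.36 for IgG against input (SE 0.11, adjusted p = 5.4e-05), -0.37 for V5 against input (adjusted p = 0.020) and 0.37 for GFP against input (adjusted p = 0.020). The V5 call was lost without input replicate 1, input replicate 2 or V5 replicate 2 (values from -0.46 to -0.29 over the 8 arrays left out in turn), and the GFP call without either input or either GFP array (0.33 to 0.41). Neither difference from input held under every scaling: V5 against input was -0.061 on median scaling (adjusted p = 0.68) and GFP against input 0.049 on spike-in scaling (adjusted p = 0.71). The V5 precipitate against IgG gave 0.98 and GFP against IgG 1.73. V5 against GFP was -0.74 (adjusted p = 0.028), the most negative difference in the family. A second Ube2n probe gave -0.99 for IgG against input, 0.06 for V5 against input and 0.63 for GFP against input.

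Ube2v1 read 13.8 and 12.2 in V5, 17.2 and 18.9 in GFP, 11.05 and 12.8 in IgG, and 9.62 and 9.92 in input. Unlike Ube2v2 and Ube2n on their brightest probes, it was not lower in the mock than in input, except on spike-in scaling. The fitted log2 difference was 0.28 for IgG against input (SE 0.11, adjusted p = 0.046), 0.41 for V5 against input (adjusted p = 0.011) and 0.88 for GFP against input (adjusted p = 0.00033). Set against IgG, V5 gave 0.13, GFP against IgG was 0.60 and V5 against GFP was -0.47 (adjusted p = 0.040). The mock call was lost without input replicate 1, input replicate 2, IgG replicate 2, GFP replicate 1 or GFP replicate 2 (0.18 to 0.39), and the V5 call without input replicate 1 or V5 replicate 1 (0.32 to 0.50). Its other kept probes read -0.35 and -0.23 for IgG against input, so the direction in the mock was not shared by its probes.

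**Figure D2:**
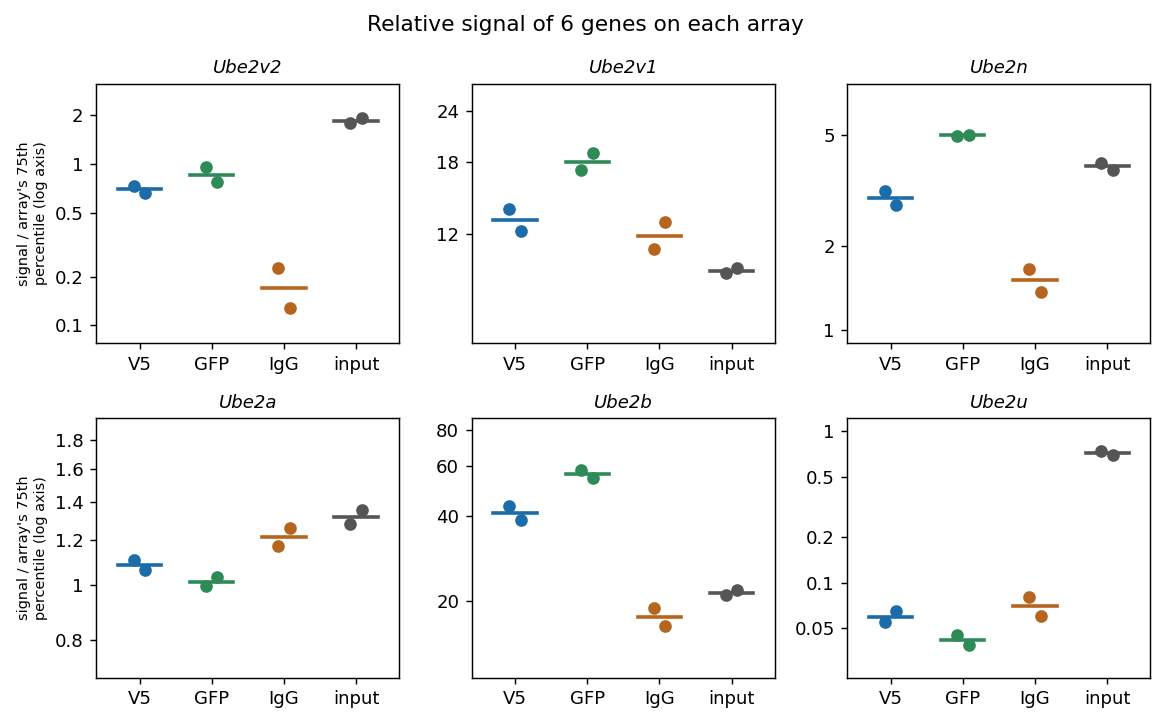
Relative signal (signal over the array's 75th percentile, log axis) of Ube2v2, Ube2v1, Ube2n, Ube2a, Ube2b and Ube2u on every array, by group in the order V5, GFP, IgG and input; dots are arrays and lines are geometric means of 2. Ube2v2 and Ube2n are lowest in IgG, Ube2b is highest in GFP, and Ube2u is near 0.7 in input and at most 0.081 in the precipitates.

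The RAD6 enzymes Ube2a and Ube2b ubiquitylate histone H2B with the ligases Rnf20 and Rnf40 and the DNA clamp PCNA with Rad18. Ube2b read 43.1 and 38.5 in V5, 58.0 and 54.3 in GFP, 18.8 and 16.3 in IgG, and 21.0 and 21.8 in input. Both Dazl precipitates lay above input and the mock, and no groups overlapped. The difference was 0.93 for V5 against input on the log2 scale (SE 0.10, adjusted p = 0.00022) and 1.39 for GFP against input (adjusted p = 3.5e-05), or 1.91-fold and 2.62-fold. The V5 call was lost with normexp correction (0.73, adjusted p = 0.082). IgG against input was -0.29 (adjusted p = 0.035), a call lost without input replicate 1, input replicate 2 or IgG replicate 2 (-0.39 to -0.18). Relative to the mock, V5 gave 1.22, GFP against IgG was 1.68 and V5 against GFP was -0.46 (adjusted p = 0.037).

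Ube2b had 5 kept probes. Those other than the brightest gave log2 differences of 0.96, 0.82, 0.14 and 0.07 for V5 against input and 1.53, 1.25, 0.58 and -0.25 for GFP against input. The 4 probes that share the reference transcript were higher in GFP than in IgG by 1.23 to 2.01 (log2), and the fifth, which the array lists under another cDNA and which read at most 0.234, gave -0.06. Ube2a, the X-linked partner in the pair, read 1.10 and 1.06 in V5, 0.994 and 1.03 in GFP, 1.17 and 1.26 in IgG, and 1.28 and 1.36 in input. On this probe the Dazl precipitates lay below input, by -0.28 in V5 (SE 0.07, adjusted p = 0.011, but 0.031 on median scaling) and -0.38 in GFP (adjusted p = 0.0029, but -0.038 with an adjusted p of 0.68 on median scaling). The V5 call was lost without input replicate 2 or V5 replicate 2 (-0.32 to -0.24). IgG against input was -0.12 (adjusted p = 0.17), V5 against IgG -0.16, GFP against IgG -0.26 and V5 against GFP 0.10 (adjusted p = 0.35).

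The other kept Ube2a probe went the opposite way. It read 1.11 and 1.12 in V5, 1.67 and 1.58 in GFP, 0.618 and 0.474 in IgG, and 0.712 and 0.700 in input. Its log2 difference was 0.66 for V5 against input and 1.20 for GFP against input, both past the threshold in a fit of all 25629 kept probes. The direction of Ube2a between the Dazl precipitates and input therefore depends on the probe, and the mean of both probes gave 0.19 in V5 and 0.41 in GFP. Hip2, the array's older name for Ube2k and so outside the rule, also had probes that parted: its brightest probe read 9.45 and 9.81 in V5, 10.7 and 10.1 in GFP, 9.18 and 9.20 in IgG, and 16.2 and 17.2 in input, while a dimmer one read 4.13 and 3.82 in V5, 5.43 and 5.28 in GFP, 2.17 and 1.91 in IgG, and 2.87 and 2.73 in input.

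Among the enzymes of mitosis and DNA repair all 3 genes were higher than input in both Dazl precipitates, beside 37.7% of all genes in V5 and 36.2% in GFP. The V5 calls were lost on spike-in scaling: 0.11 for Ube2c (adjusted p = 0.27), 0.40 for Ube2s (adjusted p = 0.076) and -0.049 for Ube2t (adjusted p = 0.64). With normexp correction they were lost too (adjusted p = 0.16, 0.10 and 0.49). Ube2c and Ube2s start and extend ubiquitin chains with the anaphase-promoting complex, and Ube2t serves the Fanconi anaemia pathway. Ube2s read 171 and 176 in V5, 190 and 171 in GFP, 159 and 230 in IgG, and 92.4 and 103 in input. All precipitates overlapped each other and lay above input. On the log2 scale it gave 0.83 for V5 against input (SE 0.17, adjusted p = 0.0047), 0.89 for GFP against input (adjusted p = 0.0033) and 0.97 for IgG against input (adjusted p = 0.0021). V5 against IgG was -0.14, GFP against IgG -0.08 and V5 against GFP -0.06 (adjusted p = 0.83). Ube2t differed from it in the mock: IgG against input was -0.45 (adjusted p = 0.0013), while V5 against input was 0.38 (adjusted p = 0.0030) and GFP against input 0.95 (adjusted p = 4.6e-05). Ube2c was 0.54 in V5, 0.97 in GFP and 0.30 in IgG against input, the last lost without input replicate 1 (0.25 to 0.35).

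The group labelled broad-range enzymes was a loose one, since it also held Ube2l3, Ube2r2 and Ube2w, described below by narrower roles. It counted 8 of 11 genes higher and 2 lower in V5 than in input, and 9 higher and 1 lower in GFP. In IgG 5 were higher and 5 lower than input. Of all genes 37.7% were higher and 35.5% lower in V5, 36.2% and 39.1% in GFP, and 43.9% and 29.3% in IgG, so that the share higher in IgG lay near that of all genes. Ube2e2 read 19.9 and 18.9 in V5, 27.5 and 25.0 in GFP, 8.96 and 9.72 in IgG, and 6.79 and 6.95 in input, 4 levels without overlap. Among the brightest probes of the family it had the largest positive difference for V5 against input, 1.50 (SE 0.08, adjusted p = 1.9e-05). The same held for GFP against input, 1.93 (adjusted p = 6.6e-06). These were 2.82-fold and 3.82-fold. IgG against input was 0.44 (adjusted p = 0.0024, but -0.35 on spike-in scaling), V5 against IgG 1.05, GFP against IgG 1.49 and V5 against GFP -0.44 (adjusted p = 0.031).

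Ube2e3 followed the same order, with 23.4 and 21.7 in V5, 31.0 and 31.7 in GFP, 12.9 and 12.0 in IgG, and 10.4 and 9.64 in input. The fitted log2 difference was 1.17 for V5 against input (SE 0.08, adjusted p = 3.6e-05), 1.65 for GFP against input (adjusted p = 9.2e-06) and 0.32 for IgG against input (adjusted p = 0.0093, but -0.48 on spike-in scaling). The last of these was lost without input replicate 2 (0.26 to 0.37). The V5 precipitate against IgG gave 0.86, GFP against IgG 1.33 and V5 against GFP -0.48 (adjusted p = 0.029). Ube2e1, of the same subfamily, was also higher than input in V5 (0.65) and GFP (1.19) but lower in IgG (-0.46, adjusted p = 0.014, lost without input replicate 1, range -0.66 to -0.27).

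The Ube2d genes, close homologues that serve ligases of many kinds, did not move together. Ube2d1, the dimmest of them, read 0.0962 and 0.0811 in V5, 0.128 and 0.142 in GFP, 0.0854 and 0.0801 in IgG, and 0.130 and 0.125 in input. V5 and IgG overlapped at a lower level, and GFP overlapped input. The log2 difference was -0.53 for V5 against input (SE 0.10, adjusted p = 0.0037), 0.08 for GFP against input (adjusted p = 0.52) and -0.62 for IgG against input (adjusted p = 0.0016), with signs that turned under another background correction (0.25 in V5 and 0.13 in IgG against input). Set against IgG, V5 gave 0.10, GFP against IgG 0.70 and V5 against GFP -0.61 (adjusted p = 0.029). Ube2d2 was higher than input in V5 by 1.10, in GFP by 1.48 and in IgG by 0.42. Ube2d3 was 0.34 in V5, a call lost without any input, V5 or GFP array (0.25 to 0.43), 0.67 in GFP and -0.49 in IgG, the last lost without input replicate 2 or IgG replicate 2 (-0.64 to -0.34). Probes of Ube2d2 were called both ways in IgG against input, and those of Ube2d3 in V5 and in GFP against input.

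Ube2g1 read 7.38 and 6.46 in V5, 10.6 and 10.3 in GFP, 4.08 and 3.07 in IgG, and 6.49 and 6.01 in input. V5 overlapped input, with GFP above both and IgG below. Its log2 difference was 0.14 for V5 against input (SE 0.14, adjusted p = 0.39), 0.74 for GFP against input (adjusted p = 0.0031) and -0.82 for IgG against input (adjusted p = 0.0019). Relative to the mock, V5 gave 0.96, GFP against IgG 1.56 and V5 against GFP -0.60 (adjusted p = 0.044). Ube2w, which ubiquitylates the amino termini of proteins, was higher than input in V5 by 1.16 (adjusted p = 0.00033) and in GFP by 1.57 (adjusted p = 7.8e-05) and gave -0.33 in IgG (adjusted p = 0.068). Ube2r2, a partner of cullin ligases, and Ube2h were higher than input in every precipitate, by 0.46 and 0.28 in V5, 0.51 and 0.40 in GFP, and 0.36 and 0.39 in IgG. On spike-in scaling both in IgG and Ube2h in V5 turned negative. On that scaling Ube2r2 in V5 (0.033, adjusted p = 0.75) and Ube2h in GFP (0.079, adjusted p = 0.41) were not past the limma threshold. With normexp correction Ube2r2 was not past it in V5 or IgG (adjusted p = 0.30 and 0.35). Nor was Ube2h in V5, GFP or IgG (adjusted p = 0.35, 0.11 and 0.095). The Ube2r2 call in IgG was lost without input replicate 2 or IgG replicate 2 (0.25 to 0.46), and the Ube2h call in V5 without input replicate 2 or V5 replicate 2 (0.21 to 0.35).

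Ube2l3, which works with ligases that take ubiquitin onto their own cysteine, was lower in every precipitate on its brightest probe. It read 1.11 and 1.001 in V5, 1.25 and 1.20 in GFP, 1.04 and 1.08 in IgG, and 2.24 and 2.54 in input, so that input stood alone. On the log2 scale it gave -1.18 for V5 against input (SE 0.09, adjusted p = 5.9e-05), -0.96 for GFP against input (adjusted p = 0.00011) and -1.17 for IgG against input (adjusted p = 4.7e-05). V5 against IgG was -0.0033, GFP against IgG 0.21 and V5 against GFP -0.21 (adjusted p = 0.14). Its other probe gave -0.30 in V5, 0.43 in GFP and -0.49 in IgG against input.

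The enzymes of protein degradation at the endoplasmic reticulum, Ube2g2, Ube2j1 and Ube2j2, held 2 genes that were higher than input in all precipitates, apart from Ube2j2 in IgG on spike-in scaling. Ube2g2 read 30.0 and 27.3 in V5, 36.2 and 34.3 in GFP, 24.5 and 26.3 in IgG, and 11.8 and 12.4 in input. The log2 difference was 1.24 for V5 against input (SE 0.08, adjusted p = 3.1e-05), 1.54 for GFP against input (adjusted p = 1.2e-05) and 1.07 for IgG against input (adjusted p = 4.0e-05). On spike-in scaling these were 0.81, 1.22 and 0.28. The V5 precipitate against IgG gave 0.17, GFP against IgG 0.48 and V5 against GFP -0.30 (adjusted p = 0.053).

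Ube2j2 read 15.9 and 15.8 in V5, 22.2 and 21.1 in GFP, 9.32 and 9.60 in IgG, and 6.99 and 7.14 in input. Its 4 levels did not overlap. The log2 difference was 1.16 for V5 against input (SE 0.06, adjusted p = 1.9e-05), 1.62 for GFP against input (adjusted p = 6.1e-06) and 0.42 for IgG against input (adjusted p = 0.00094, but -0.37 on spike-in scaling). Set against IgG, V5 gave 0.74, GFP against IgG 1.20 and V5 against GFP -0.45 (adjusted p = 0.028). A second probe gave 1.47 in V5 and 2.04 in GFP against input, and a dim probe, at most 0.0988, gave -0.46 and -0.58. Ube2j1 gave -0.12 in V5, -0.09 in GFP and -0.13 in IgG against input on its brightest probe (adjusted p from 0.080 to 0.20), while its other probe gave 0.82 in V5 and 1.43 in GFP.

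The enzymes for ubiquitin-like modifiers included Ube2f and Ube2m for Nedd8, Ube2l6 for Isg15, and Ube2z, which is charged by the activating enzyme Uba6. None of these was called lower than input in any precipitate, while on spike-in scaling Ube2f and Ube2l6 were lower in IgG (-0.84 and -0.64), as were Ube2f and Ube2l6 in V5 (-0.42 and -0.69) and Ube2l6 in GFP (-0.67). Ube2z read 15.5 and 15.2 in V5, 16.7 and 17.1 in GFP, 14.7 and 17.2 in IgG, and 6.35 and 6.64 in input, on its brightest probe. The mock overlapped both Dazl precipitates, and all lay above input. The fitted log2 difference was 1.24 for V5 against input (SE 0.09, adjusted p = 4.4e-05), 1.38 for GFP against input (adjusted p = 2.3e-05) and 1.29 for IgG against input (adjusted p = 3.0e-05). Relative to the mock, V5 gave -0.05, GFP against IgG 0.09 and V5 against GFP -0.14 (adjusted p = 0.27). The other Ube2z probe gave 0.044 in V5 and 0.27 in GFP against input, both not past the threshold, and 0.52 in IgG, past the threshold. Against IgG it gave -0.48 in V5 and -0.25 in GFP.

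Ube2m was higher than input by 0.60 in V5, 0.58 in GFP and 0.96 in IgG (adjusted p = 8.5e-05), and on spike-in scaling V5 against IgG was 0.0018 and GFP against IgG 0.092. Among the comparisons with input Ube2f was called in GFP (0.26, adjusted p = 0.041), and this was lost without any array but input replicate 2 and GFP replicate 2 (0.16 to 0.37). Ube2l6, at 0.14 to 0.245 on all arrays, was called in no comparison with input.

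Of the remaining genes Ube2o, a large enzyme that also acts as a ligase, Ube2q (now Ube2q1) and Ube2q2 were higher than input in every precipitate on their brightest probes. Ube2q (-0.081) and Ube2q2 (-0.18) turned in IgG on spike-in scaling. On that scaling Ube2o was not past the limma threshold in V5 (0.21, adjusted p = 0.11) or IgG (0.17, adjusted p = 0.17). Nor was Ube2q in V5 (0.13, adjusted p = 0.20). With normexp correction the V5 calls of Ube2o and Ube2q were lost (adjusted p = 0.15 and 0.13). Ube2o stood 0.63 above input in V5, 0.51 in GFP and 0.97 in IgG, and Ube2q 0.56 in V5, 0.43 in GFP and 0.71 in IgG. The mock was highest for both on the 75th-percentile scaling but not on spike-in probes, where Ube2o gave 0.033 for V5 and 0.019 for GFP against IgG, and Ube2q 0.21 and 0.19. Ube2q2 stood 1.07 above input in V5, 1.41 in GFP and 0.62 in IgG. Its other 3 probes gave -0.65 to -1.21 for IgG against input and the mean of its probes -0.54. For V5 against input 1 of its 4 probes was called higher and 2 lower (lowest -0.37), and the mean of its probes gave 0.041 (adjusted p = 0.68). For GFP against input 1 of the 4 was called higher and 0 lower, and the lowest gave -0.19. Ube2u, represented by 1 probe, read 0.0547 and 0.0650 in V5, 0.0452 and 0.0389 in GFP, 0.0809 and 0.0604 in IgG, and 0.737 and 0.699 in input. It was near the array background in every precipitate, though well above it by the scanner's flag on all arrays. Its log2 difference was -3.59 for V5 against input (SE 0.16, adjusted p = 1.2e-05), -4.10 for GFP against input (adjusted p = 6.2e-06) and -3.36 for IgG against input (adjusted p = 1.2e-05), or 12.0-fold, 17.1-fold and 10.3-fold lower. With normexp correction Ube2u gave -2.10 in V5 (adjusted p = 0.053), -2.33 in GFP (adjusted p = 0.036) and -2.08 in IgG (adjusted p = 0.048), so that the size of the fold depended on the background correction. V5 against IgG was -0.23, GFP against IgG -0.74 and V5 against GFP 0.51 (adjusted p = 0.074).

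Against the mock the counts of limma calls (adjusted p under 0.05) are a description, since the family was picked there. In V5 against IgG 15 genes were higher and 2 lower, beside 16.7% higher and 40.3% lower of all genes. In GFP against IgG 19 were higher and 6 lower, beside 21.6% and 52.1% of all genes. Scaled on the array median the counts were 20 higher and 0 lower for V5 and 24 higher and 0 lower for GFP, and on spike-in probes 24 higher and 0 lower for V5 and 25 higher and 0 lower for GFP. All genes moved with the scaling too: on the array median 27.6% were higher and 8.93% lower for V5 and 30.8% and 27.8% for GFP, and on spike-in probes 35.3% and 5.21% for V5 and 38.9% and 12.2% for GFP. Below Ube2v2 the highest genes for V5 against IgG were Ube2w (1.49), Ube2b (1.22), Ube2e1 (1.11) and Ube2e2 (1.05). Of these, Ube2e2 was higher in the mock than in input (0.44), whereas Ube2b (-0.29) and Ube2e1 (-0.46) were lower. A gene could thus stand above the mock with the mock above input or below it.

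The 2 Dazl precipitates, made with antibodies to different tags of the fusion by the sample labels, lay on 1 slide and were compared directly. V5 was lower than GFP for 14 of 31 genes and higher for 0 (limma, adjusted p under 0.05), where 7.17% of all genes were lower and 6.76% higher. The family's median log2 difference was -0.33, against a median of 0.089 over all genes. In the same comparison the germ cell markers had a median of -0.21, with 2 of 7 lower and 0 higher, and the Sertoli cell markers a median of 0.27, with 2 of 8 higher and 0 lower, and their part in the result was not tested. Both V5 arrays lay below both GFP arrays for 23 genes and above them for 4, where 25.9% and 45.4% of all genes did so. The 14 genes included Ube2n (-0.74), Ube2d1 (-0.61), Ube2g1 (-0.60), Ube2t (-0.56), Ube2e1 (-0.53), Ube2e3 (-0.48), Ube2v1 (-0.47), Ube2b (-0.46), Ube2j2 (-0.45), Ube2e2 (-0.44), Ube2c (-0.43), Ube2d2 (-0.38) and Ube2q2 (-0.33). Each of them except Ube2d1 was higher than input in GFP. Of the 6 genes with a positive difference, Ube2u was the largest.

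These calls were marginal and rested on all of the input, V5 and GFP arrays. Leaving out any 1 of those 6 arrays gave 0 calls in the family by limma, with 14 to 19 genes at an unadjusted p under 0.05, whereas leaving out either IgG array gave 17 calls (16 lower and Ube2u higher). The calls over all genes moved alike, with 3 to 145 genes called without 1 of the 6 arrays and 4999 without either IgG array, against 2452 with all 8 arrays. Without the 2 arrays of conflicting descriptions the count was also 0, with 18 at an unadjusted p under 0.05, and so it was with normexp correction, with no filter on dim probes and with only the V5 and GFP arrays in the fit (6, 17 and 19 genes at an unadjusted p under 0.05). No gene of the 14 changed sign in these fits. The difference of Ube2n ranged from -0.83 to -0.66 over the arrays left out, that of Ube2g1 from -0.70 to -0.50 and that of Ube2d1 from -0.73 to -0.48. Over probes, 26 of 74 were lower in V5 and 0 higher in a fit of all 25629 kept probes, of which 6.77% were lower and 4.71% higher.

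**Figure D3:**
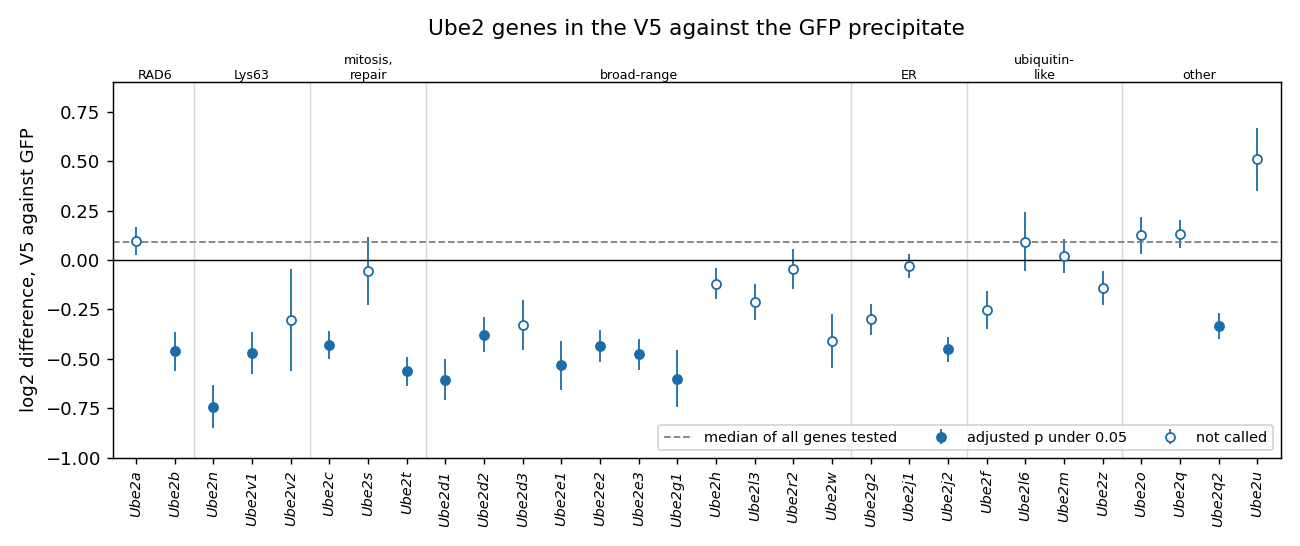
Log2 difference of V5 against GFP (vertical axis) for 30 of the 31 Ube2 genes, grouped by role; points are limma estimates from 2 arrays per group, bars are SE, filled points have an adjusted p under 0.05, and the dashed line is the median of all genes tested (0.089). The 13 filled points all lie between -0.74 and -0.33.

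Probes of one gene were compared by their differences between groups, not by level. Of the 31 genes 23 had at least 2 kept probes. Probes were called in opposite directions for 3 genes in V5 against input (Ube2a, Ube2d3 and Ube2q2), for 4 in GFP against input (Ube2a, Ube2d3, Ube2j2 and Ube2l3), for 3 in IgG against input (Ube2d2, Ube2q2 and Ube2v1) and for 0 in V5 against GFP. The median span between the lowest and highest probe of a gene was 0.60 (log2) in V5 against input, 0.80 in GFP against input, 0.46 in IgG against input and 0.20 in V5 against GFP. The span was thus smallest between the 2 Dazl precipitates, but the differences were also small there (-0.74 to 0.51, against -4.10 to 1.93 in GFP against input). Opposite calls could not occur there, since 0 probes were called higher. The sign differed between probes for 7 genes in V5 against GFP, 6 in IgG against input, 11 in V5 against input and 9 in GFP against input. Closer agreement of probes in V5 against GFP is therefore not shown. Probe sequences were not used here, so the part of the transcript that each probe reads is not given.

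**Figure D4:**
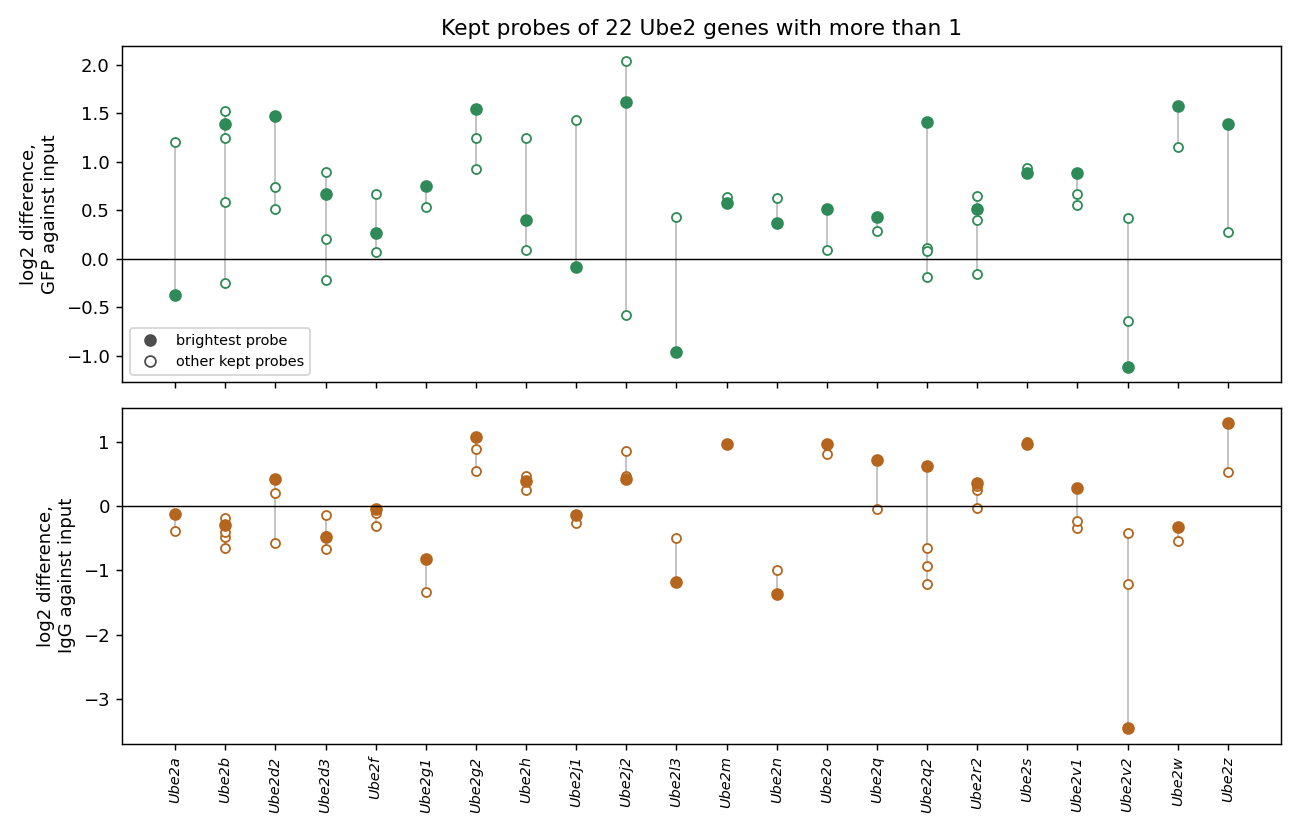
Log2 difference from input (vertical axes) of every kept probe of 22 of the 23 Ube2 genes with more than 1, for GFP (upper panel) and IgG (lower panel); filled points are the brightest probe, open points the others, and lines join the probes of a gene. Probes of Ube2j2 span from -0.58 to 2.04 in GFP, and those of Ube2v2 from -3.45 to -0.42 in IgG.

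The enzymes before and after the E2 step were taken from lists of the ubiquitin pathway and are given by their counts, without a test of the differences between lists. Against input, 37.7% of all genes were higher and 35.5% lower in V5, 36.2% and 39.1% in GFP, and 43.9% and 29.3% in IgG, and the counts of these short lists are to be read against those shares. Of 11 activating enzyme genes 2 were higher and 5 lower than input in V5, 3 higher and 6 lower in GFP, and 3 higher and 7 lower in IgG. Ube1x (now Uba1), the main activating enzyme for ubiquitin, gave -0.74 in V5, -1.08 in GFP and -0.27 in IgG against input, all past the threshold. Appbp1 (now Nae1) and Ube1c (now Uba3), the activating enzyme for Nedd8, gave -1.57 and -1.54 in IgG against input. Mocs3, which activates Urm1, gave 1.25 there.

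Of 8 ligase genes that work with Ube2a or Ube2b, 2 were higher and 4 lower than input in V5, 2 higher and 6 lower in GFP, and 2 higher and 4 lower in IgG. Rad18 read 0.825 and 1.16 in V5, 1.30 and 1.23 in GFP, 0.852 and 0.683 in IgG, and 3.76 and 3.66 in input, so that every precipitate lay below input (-1.92, -1.55 and -2.28 on the log2 scale). Rnf20 gave -2.73 in V5, -2.48 in GFP and -2.40 in IgG, while its partner Rnf40 gave 0.56, 0.41 and 1.07. Ubr2, a ligase needed for spermatogenesis in mice, gave 0.06 in V5, -0.26 in GFP and 0.42 in IgG, the V5 value not past the threshold. Of 13 ligase genes that work with Ube2n, 6 were higher and 4 lower in V5, 6 higher and 4 lower in GFP, and 3 higher and 8 lower in IgG than in input. Rnf138 gave 0.94 in V5, 1.30 in GFP and -0.85 in IgG, and Rnf8 gave -0.41 (not past the threshold), -0.20 (not past the threshold) and -0.85. In IgG against input Traf2 gave 0.97, Birc2 -0.66 and Rnf168 -0.67.

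Of 13 genes of degradation at the endoplasmic reticulum 10 were higher and 2 lower than input in V5, 8 higher and 1 lower in GFP, and 8 higher and 2 lower in IgG. Syvn1, a ligase of that membrane, gave 0.71 in V5, 0.80 in GFP and 0.87 in IgG, Aup1, which recruits Ube2g2, gave 0.55, 0.21 (not past the threshold) and 1.07, and Vcp, the ATPase that extracts the substrates, gave -0.80, -0.72 and -0.83. Of 15 genes of the anaphase-promoting complex 4 were higher and 5 lower in V5, 3 higher and 7 lower in GFP, and 5 higher and 4 lower in IgG. Its inhibitor Fbxo5 gave -1.43, its activator Fzr1 1.41 and its subunit Anapc4 -0.86 in IgG against input. Of 10 Fanconi anaemia genes 4 were higher and 5 lower in V5, 3 higher and 6 lower in GFP, and 5 higher and 4 lower in IgG, with Usp1 at -1.64, Fance at 1.40 and Fancl, the ligase that works with Ube2t, at -1.45 in IgG.

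Of 8 E2 and E2-like genes without a Ube2 name 2 were higher and 3 lower in V5, and 3 were higher and 3 lower in GFP, than in input. In IgG 3 were higher and 4 lower. Atg3 and Atg10, the conjugating enzymes of autophagy, gave -1.24 and -1.80 in V5, -1.20 and -1.95 in GFP, and -1.63 and -1.80 in IgG, while Cdc34, which serves cullin ligases, gave 1.04, 0.71 and 1.50. Of 17 measured modifier genes 5 were higher and 5 lower in V5, 5 higher and 6 lower in GFP, and 5 higher and 7 lower in IgG. Sumo3 gave 1.41 in V5, 1.83 in GFP and 0.72 in IgG, Isg15 gave -1.59, -1.78 and -1.07, and Urm1 (listed as 2900073H19Rik) gave 0.74, 0.60 and 1.18.

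For V5 against GFP the same lists counted 3 higher and 2 lower of 11 activating enzymes, 0 and 2 of 17 modifiers, 0 and 1 of the 8 other E2 genes, 1 and 0 of 8 ligases of Ube2a and Ube2b, 1 and 2 of 13 ligases of Ube2n, 2 and 0 of 15 anaphase-promoting complex genes, 1 and 0 of 10 Fanconi anaemia genes, and 0 and 1 of 13 genes of endoplasmic reticulum degradation. Of all genes 6.76% were higher and 7.17% lower, and the counts of these short lists are to be read against those shares. Over all genes the calls fell from 2452 to 0 with normexp correction and to 2 with the replicate block. The medians of the lists ran from -0.14 for the modifiers to 0.18 for the Fanconi anaemia genes, beside 0.089 over all genes. The median of the Ube2 family was -0.33.

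The authors' deposited table holds averages for V5, GFP and input and matched 17 probes of 15 members uniquely. In the authors' deposited table the log2 ratio to input had the sign of the limma difference for 17 of 17 probes in V5 and 16 of 17 in GFP. The authors' values were higher than the limma differences by a median of 0.27 in V5 and 0.286 in GFP. For Ube2u the authors' deposited table gives log2 ratios of -3.32 for V5 over input and -3.84 for GFP over input, and for Ube2e2 it gives 1.75 and 2.21.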

How the data were processed

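Per the file headers, the deposited intensity values (processed signal) came from Agilent Feature Extraction 9.1.3.1, which subtracted background; scaling between arrays is not recorded there. The authors' deposited table holds signal values normalized to the median and averaged over the input, V5 and GFP groups, per the file's comment lines. Its 6 other value columns were not used.

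Here log2 of the intensity minus each array's 75th percentile over non-control spots was taken. Outlier-flagged spots were left out and spots of a probe averaged. A probe was kept where each array of some group marked it as well above background (25629 probes). The brightest kept probe stood for a gene, which gave 17593 genes. Group means over 8 arrays were fitted with limma 3.58.1 in R 4.3.3 (4 residual and 2.41 prior degrees of freedom), giving 6 two-sided comparisons, adjusted by Benjamini-Hochberg over all genes, with a threshold of 0.05. SE is that of the moderated test. The small number of arrays, 2 in each group, limits the precision. The fit was tested on simulated data. Accessions matched RefSeq symbols for 30 of 31 members.

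The members and lists were chosen with earlier results of these data known. Array values are given for Ube2v2, Ube2v1, Ube2n, Ube2a and Ube2b and for the 3 highest and 3 lowest called members of each tested comparison. From each pathway list up to 3 genes of smallest p are named, with Rad18, Rnf8, Rnf138, Ubr2 and Uba1. Ube2w, Ube2t and others were described from differences only. Alternatives were the background correction (normexp, offset 50), scaling (median, quantile, spike-in), the filter, the choice of probe, a fit of only the groups compared, a replicate block, and each array left out. One member enters the counts but is not reported here by name.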

Additional observations from a re-analysis of the deposited data

How the results depend on the processing

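The count of 14 Ube2 genes for V5 against GFP fell to 0 with normexp correction, with no filter on dim probes, with only the 2 groups compared, without the 2 arrays of conflicting descriptions and with the replicate block, where 6, 17, 19, 18 and 18 genes had an unadjusted limma p under 0.05. Over all genes these settings called 0, 4, 2, 4 and 2, against 2452. Over the arrays left out in turn it ran from 0 to 17. With the median, quantile and spike-in scalings it was 12, 15 and 15, all lower. With normexp correction the counts were 12 for IgG against input (main 25), 10 for V5 against input (27), 16 for GFP against input (28), 0 for V5 against IgG (17, with 12 at an unadjusted p under 0.05) and 13 for GFP against IgG (25). Without the arrays of conflicting descriptions V5 against input gave 17 and V5 against IgG 8. A called difference of a Ube2 gene turned in 33 cases over 18 genes, counted over all 6 comparisons and all settings. Among the genes given by array the following turned. With normexp correction Ube2d1 became 0.13 for IgG against input and 0.25 for V5 against input. With median scaling Ube2a became 0.031 for V5 against input and 0.031 for GFP against IgG, and with spike-in scaling 0.21 for GFP against IgG. With spike-in scaling Ube2e2 (-0.35), Ube2e3 (-0.48), Ube2j2 (-0.37) and Ube2v1 (-0.51) turned lower in IgG than in input, and Ube2v1 became -0.017 for V5 against input. With the mean of the kept probes Ube2a became 0.19 for V5 against input, 0.41 for GFP against input and 0.66 for GFP against IgG, and Ube2v1 became -0.098 for IgG against input. The cause was not tested. Sharing a replicate number did not mark arrays as pairs: the correlations of replicate differences between groups ran from -0.0759 to 0.107, and apart from the V5 against GFP count the replicate block moved no count of Ube2 genes by more than 1.5 times. Members near background, Ube2u, Ube2d1 and Ube2l6, are limited by signal over background.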
